A study of Mus musculus with 4 samples.

Results

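The gastric stem and progenitor markers examined here are 10 genes, taken by symbol: Lgr4, Lgr5, Axin2, Tnfrsf19, Lrig1, Bmi1, Runx1, Sox2, Foxq1 and Gata4. They are 10 of the 22180 genes represented on the arrays by probe sets annotated to exactly 1 gene. Each gene was represented by its probe set with the highest mean over the 4 arrays, and no difference between groups entered the choice. All 10 passed the level filter, a mean over the arrays of at least 5.03 in log2 units, which 11090 genes met. Bmi1 passed through its WT arrays alone, since both of its KO values lie under 5.03. For 7 of the genes 1 probe set was available, and for Lgr5, Axin2 and Foxq1 there were 2.

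The corpus is the acid-secreting region of the stomach, and its glands are renewed from progenitors in the isthmus, with some chief cells at the gland base able to act as a reserve. Wnt signalling, amplified by R-spondins through Lgr receptors, maintains many epithelial stem cells, and its readouts therefore serve as stem cell markers. The other markers are transcription or chromatin factors and growth factor regulators whose activity labels progenitors or sets the identity of glandular stomach cells.

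Expression was measured in the gastric corpus of adult mice aged 8 to 10 weeks after 14 days of daily intraperitoneal injections. There were 4 groups with 1 array each: KO given metformin at 300 mg/kg, KO given saline vehicle, WT given metformin at the same dose and WT given vehicle. KO mice carried Atp4b-cre with floxed Prkaa1 and Prkaa2, the genes of the α1 and α2 catalytic subunits of the energy sensor AMPK, and Atp4b-cre directs the deletion to parietal cells. They were of mixed background with B6 and FVB contributions, and WT mice were C57BL/6, so genotype and strain background cannot be told apart. The labels do not say how many animals an array stands for. With 1 array per group there is no spread between replicates, and a difference between 2 arrays is given as a size on the log2 scale with no test. RNA came from tissue and not from isolated cells, so fewer cells of a type and less RNA per cell cannot be told apart.

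Prkaa1 had log2 values of 8.66 (KO metformin), 8.18 (KO vehicle), 8.90 (WT metformin) and 9.46 (WT vehicle), and Prkaa2 had 7.52, 7.19, 8.02 and 8.90 in the same order of arrays. Both targeted genes were lower on the KO than on the WT array under either treatment, and Atp4b-cre does not target the other cell types of the tissue. The labels do not say whether the probes lie within the deleted exons, and a probe outside them checks nothing. Parietal cell markers gave a summed signal (the sum of unlogged values over 10 genes) of 24913, 21198, 24425 and 30455 on these arrays, so the tissue held parietal cell RNA in every group. Markers of the squamous forestomach, a neighbouring tissue, summed to 1930 on the KO metformin array, against 294 (KO vehicle), 250 (WT metformin) and 184 (WT vehicle) over the 13 measured. Of these 13, 5 passed the level filter and 5 others stayed under 5.03 on every array. The median over all genes also shifted between arrays: it was 0.11 for KO metformin minus KO vehicle, -0.14 for WT metformin minus WT vehicle, -0.22 for KO vehicle minus WT vehicle and 0.02 for KO metformin minus WT metformin.

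Under vehicle, every marker read lower on the KO array than on the WT array as deposited, as did 66.9% of all genes. After rescaling of the arrays by cyclic loess, Runx1 (0.23) and Tnfrsf19 (0.16) lay above 0. The deposited differences lay between -0.03 (Runx1 and Tnfrsf19) and -0.999 (Gata4), with a median of -0.68, against -0.22 over all genes. Under metformin the marker median was instead 0.18 for KO minus WT. No marker reached a 2-fold difference in any of the 4 comparisons of arrays, where between 0.92% and 10.4% of all genes did. The KO vehicle array was the lowest of the 4 for 8 of the 10 markers, as for 44.3% of all genes, and the WT vehicle array was the highest for 7, as for 46.2% of all genes.

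**Figure D1:**
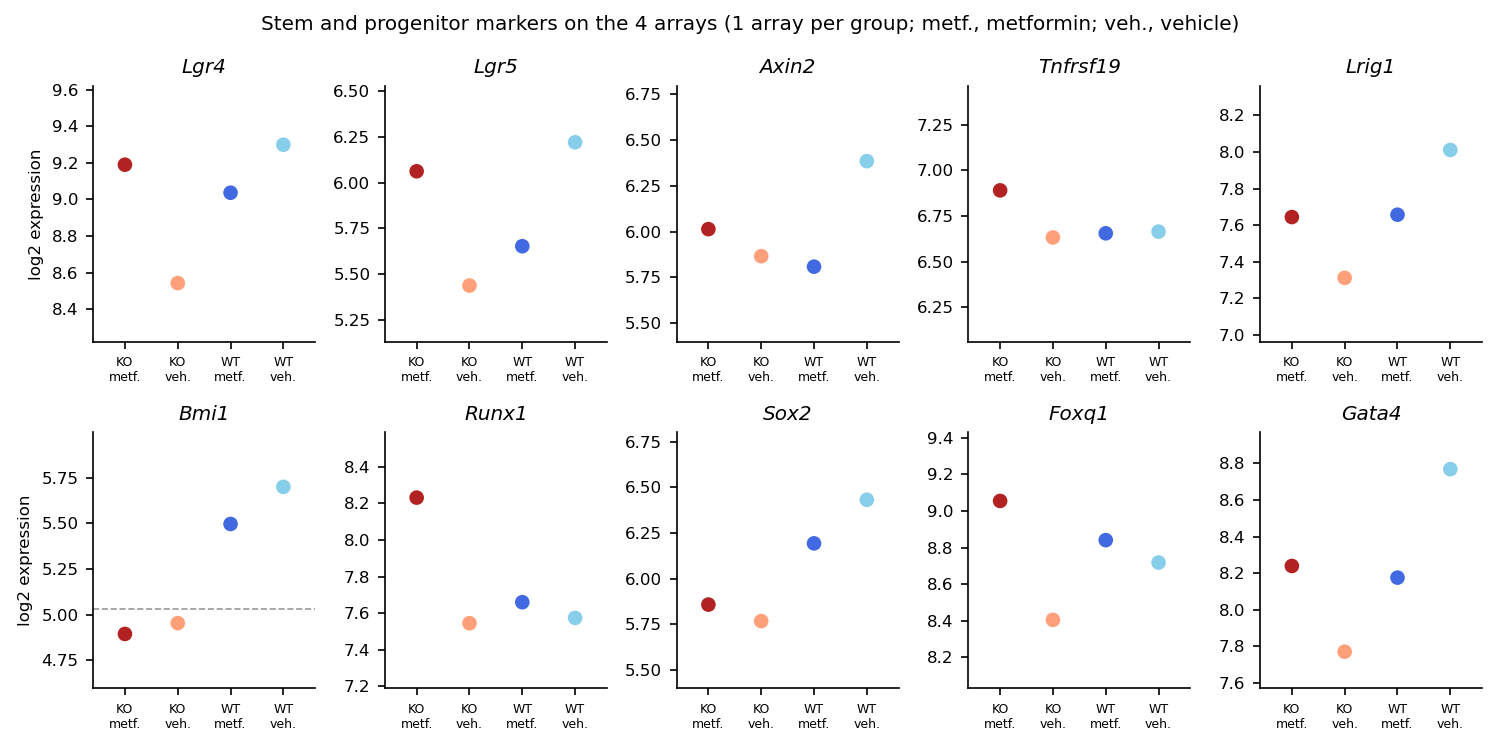
Log2 expression of the 10 markers on the 4 arrays, 1 point per array, with panels of equal height in log2 units and a dashed line at 5.03 in the Bmi1 panel. The KO vehicle point is the lowest in 8 panels, while Axin2 is lowest on the WT metformin array (5.81) and Bmi1 on the KO metformin array (4.89).

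Lgr4 and Lgr5 encode receptors for R-spondins, which raise the amount of Wnt receptor at the cell surface by counteracting the ubiquitin ligases Rnf43 and Znrf3. Lgr4 is broadly expressed in epithelia, and Lgr5 marks stem cells at the base of antral glands and a subset of chief cells in the corpus. Lgr4 had log2 values of 9.19 (KO metformin), 8.54 (KO vehicle), 9.04 (WT metformin) and 9.30 (WT vehicle). The KO vehicle array stood apart, and the other arrays lay within a narrow band. Its differences were 0.65 for KO metformin minus KO vehicle, -0.26 for WT metformin minus WT vehicle, -0.76 for KO vehicle minus WT vehicle and 0.15 for KO metformin minus WT metformin. Lgr5 had values of 6.06 (KO metformin), 5.44 (KO vehicle), 5.65 (WT metformin) and 6.22 (WT vehicle). Metformin thus went with the higher value in KO corpus and the lower value in WT corpus. The Lgr5 differences were 0.63 for KO metformin minus KO vehicle, a ratio of 1.54, and -0.57 for WT metformin minus WT vehicle, a ratio of 0.674. Between the genotypes, the Lgr5 difference was -0.78 under vehicle and 0.41 under metformin. The second Lgr5 probe set read 3.77, 4.13, 4.15 and 4.18 on the same arrays, under 5.03 throughout, and did not show the higher value on the KO metformin array.

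Axin2 encodes a scaffold of the complex that degrades β-catenin and is itself a direct target of Wnt signalling, so its level is widely used as a readout of the pathway. It had log2 values of 6.01 (KO metformin), 5.87 (KO vehicle), 5.81 (WT metformin) and 6.39 (WT vehicle). The WT vehicle array was the high one, and the other 3 arrays lay close together. The difference was 0.15 for KO metformin minus KO vehicle, against -0.58 for WT metformin minus WT vehicle. KO minus WT came to -0.52 under vehicle and 0.21 under metformin. Its second probe set, with values of 4.31, 4.73, 4.69 and 4.24 and thus under 5.03 on every array, went the opposite way in all 4 comparisons.

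Lrig1 encodes a transmembrane protein that restrains signalling by ErbB receptors and labels slowly cycling epithelial progenitors. It had values of 7.64 (KO metformin), 7.31 (KO vehicle), 7.66 (WT metformin) and 8.01 (WT vehicle). Both KO values lay below both WT values, although the 2 metformin arrays were almost level, at -0.01 for KO minus WT. Under vehicle the genotype difference was -0.70. The metformin difference was 0.33 in KO and -0.35 in WT.

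Bmi1 encodes a core subunit of Polycomb repressive complex 1, which silences genes through histone ubiquitination, and was used early as a marker of reserve stem cells in intestine. It had values of 4.89 (KO metformin), 4.95 (KO vehicle), 5.50 (WT metformin) and 5.70 (WT vehicle). Here the arrays separated by genotype and hardly by treatment. KO minus WT was -0.75 under vehicle and -0.60 under metformin, and metformin minus vehicle was -0.06 in KO and -0.20 in WT. Since both KO values lay under 5.03, these differences are not read as exact folds.

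Sox2, a transcription factor of stem cells in the glandular stomach and of basal cells in the forestomach, also had both KO values below both WT values. They were 5.86 (KO metformin) and 5.77 (KO vehicle), against 6.19 (WT metformin) and 6.43 (WT vehicle). The genotype difference was -0.66 under vehicle and -0.34 under metformin. With metformin it differed by 0.09 in KO and by -0.24 in WT. The summed squamous signal was highest on the KO metformin array, and its part in the Sox2 values was not tested.

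Gata4, a zinc finger transcription factor required for the columnar epithelium of the glandular stomach, varied most among the markers, with a range of 0.999 over the 4 arrays. Its values were 8.24 (KO metformin), 7.77 (KO vehicle), 8.17 (WT metformin) and 8.77 (WT vehicle). The 2 metformin arrays lay close together between the 2 vehicle arrays. KO minus WT was -0.999 under vehicle, just short of 2-fold, and 0.06 under metformin. Metformin minus vehicle was 0.47 in KO and -0.59 in WT.

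Foxq1, a forkhead transcription factor of surface pit cells that is needed for expression of the mucin Muc5ac in mice, had values of 9.05 (KO metformin), 8.40 (KO vehicle), 8.84 (WT metformin) and 8.72 (WT vehicle). Both metformin values lay above both vehicle values. The difference was 0.65 for KO metformin minus KO vehicle, a ratio of 1.57, and 0.12 for WT metformin minus WT vehicle. KO minus WT was -0.31 under vehicle and 0.21 under metformin. The second Foxq1 probe set had values of 5.43, 4.80, 5.56 and 5.45, with a metformin difference of 0.62 in KO and 0.11 in WT, close to those of the chosen one. Muc5ac itself differed by 0.83 for KO metformin minus KO vehicle, and the median of the 5 pit cell markers differed by 0.06.

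Runx1 encodes a transcription factor whose intronic enhancer eR1 is active in isthmus stem cells of the mouse corpus. It had values of 8.23 (KO metformin), 7.54 (KO vehicle), 7.66 (WT metformin) and 7.57 (WT vehicle). The KO metformin array was the high one, and the other 3 were nearly level. The difference was 0.69 for KO metformin minus KO vehicle, a ratio of 1.61 and the largest of the 10 markers in that comparison. In WT the metformin difference was 0.09. KO minus WT was -0.03 under vehicle and 0.57 under metformin.

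Tnfrsf19, also called Troy, is a receptor of the tumour necrosis factor family and a Wnt target that marks chief cells with reserve stem cell capacity. It varied least, with values of 6.89 (KO metformin), 6.63 (KO vehicle), 6.65 (WT metformin) and 6.66 (WT vehicle). Again the KO metformin array was the high one. Its difference was 0.26 for KO metformin minus KO vehicle and -0.01 for WT metformin minus WT vehicle. The high values of Runx1, Tnfrsf19 and Foxq1 on the KO metformin array coincided with the summed squamous signal of 1930 there, and its part in them was not tested.

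Runx1 and Tnfrsf19 each have 2 annotated starts in RefSeq (GRCm38.p6) and 1 probe set here, so the values do not separate transcripts from the 2 starts. Their promoter windows are printed because these 2 markers had the KO vehicle minus WT vehicle values nearest to 0. Each window runs 5′ to 3′ on the minus strand over 250 bases before the annotated start and 50 after it. Capitals mark matches to TGTGGT (the core bound by RUNX factors) or CTTTGA (a core bound by the TCF and LEF factors of the Wnt pathway) on either strand.
Runx1, chr16:92826025-92826324: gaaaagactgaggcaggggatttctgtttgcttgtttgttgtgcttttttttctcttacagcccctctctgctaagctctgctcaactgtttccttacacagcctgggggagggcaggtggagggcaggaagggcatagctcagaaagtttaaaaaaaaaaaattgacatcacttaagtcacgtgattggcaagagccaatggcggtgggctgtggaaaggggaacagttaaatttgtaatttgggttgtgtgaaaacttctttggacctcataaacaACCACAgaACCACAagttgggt
Runx1, chr16:92697280-92697579: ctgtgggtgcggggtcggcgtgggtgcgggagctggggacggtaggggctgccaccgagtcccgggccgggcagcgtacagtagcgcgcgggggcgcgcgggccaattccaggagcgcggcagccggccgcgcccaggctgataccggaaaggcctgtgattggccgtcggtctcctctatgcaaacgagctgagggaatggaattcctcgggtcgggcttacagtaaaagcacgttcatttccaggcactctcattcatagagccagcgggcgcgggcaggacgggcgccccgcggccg
Tnfrsf19, chr14:61046806-61047105: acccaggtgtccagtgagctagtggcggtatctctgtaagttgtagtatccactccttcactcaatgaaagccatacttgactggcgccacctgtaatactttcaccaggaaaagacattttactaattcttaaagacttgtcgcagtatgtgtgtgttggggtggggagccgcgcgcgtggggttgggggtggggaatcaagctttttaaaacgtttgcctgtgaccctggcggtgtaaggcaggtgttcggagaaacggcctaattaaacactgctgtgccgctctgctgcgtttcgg
Tnfrsf19, chr14:61037938-61038237: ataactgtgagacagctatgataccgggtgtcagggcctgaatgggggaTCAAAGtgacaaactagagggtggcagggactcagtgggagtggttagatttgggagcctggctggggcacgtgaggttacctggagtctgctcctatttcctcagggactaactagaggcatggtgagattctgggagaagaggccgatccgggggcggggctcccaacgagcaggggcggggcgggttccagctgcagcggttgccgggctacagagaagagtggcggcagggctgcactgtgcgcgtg
The first Runx1 window holds TGTGGT on the opposite strand, read as ACCACA, at positions 279 and 287 from its 5′ end, and is 45.0% G or C. The other Runx1 window holds neither motif and is 69.0% G or C. The second Tnfrsf19 window holds CTTTGA on the opposite strand, read as TCAAAG, at position 50, and the first holds none. Windows were available for 7 markers, 9 windows in all, and no other window among them held either motif. The RUNX core lies in 16.8% of the 32851 windows of the same length in RefSeq. The TCF core lies in 16.0% of them. A GATA core, AGATAA, is found in 11.2% and was in none of the 9. Overlaps between these motifs were not merged, and a match is a description of the letters only.

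In KO corpus, 9 of the 10 markers read higher with metformin than with vehicle, with a median of 0.40. The highest were Runx1 (0.69), Foxq1 (0.65), Lgr4 (0.65) and Lgr5 (0.63), and Bmi1 was the one below 0. Over all genes 61.7% lay above 0, and 8 of the markers lay above the median of all genes. None of the 10 was past 2-fold, against 3.06% of genes in either direction. In WT corpus, 8 of the 10 read lower with metformin, with a median of -0.25. Gata4 (-0.59), Axin2 (-0.58) and Lgr5 (-0.57) were the lowest, and Foxq1 (0.12) and Runx1 (0.09) lay above 0. Among all genes 65.3% lay below 0, and 7 markers lay below the gene median. Again 0 of the 10 were past 2-fold, against 1.7% of genes.

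For KO vehicle minus WT vehicle, 10 of 10 markers lay below 0 as deposited, where 66.9% of genes did, and 8 lay below the median of all genes. Relative to that median of -0.22, Gata4 was at -0.78, Lgr5 at -0.57 and Lgr4 at -0.54, while Tnfrsf19 and Runx1 were at 0.19 each. When the arrays were brought to a common scale by cyclic loess, 8 of 10 lay below 0, and Tnfrsf19 (0.16) and Runx1 (0.23) turned above it. The count past 2-fold was 0 of 10, against 10.4% of genes. For KO metformin minus WT metformin, 7 markers lay above 0, where 53.0% of genes did. Runx1 (0.57) and Lgr5 (0.41) were the highest, Bmi1 (-0.60) and Sox2 (-0.34) the lowest, and 0 of 10 were past 2-fold, against 0.92% of genes. Bmi1 passed the level filter through its WT arrays alone, so its low place is not read as a result. The KO vehicle array enters 2 of these comparisons with opposite signs, and the WT vehicle array is subtracted in 2, so the comparisons that share an array are not separate results.

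**Figure D2:**
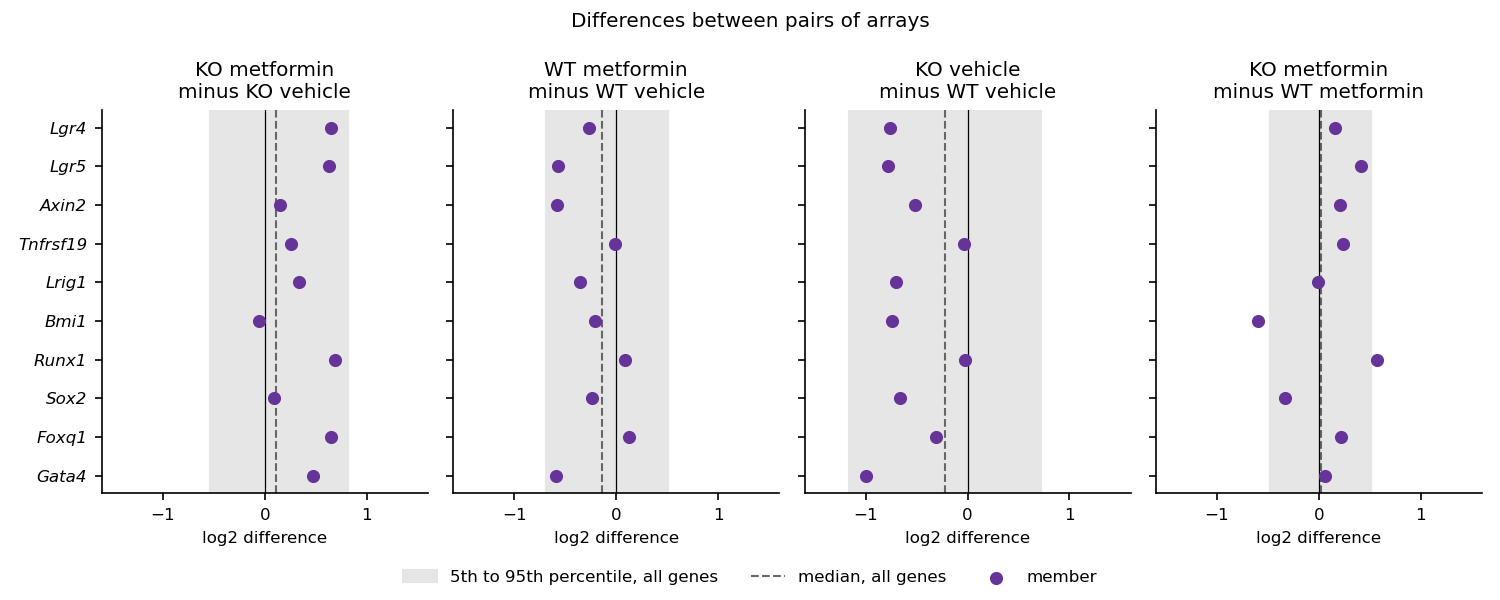
Log2 differences of the 10 markers between pairs of arrays, as points, with the median of all genes dashed and their 5th to 95th percentile shaded. Under vehicle the points for KO minus WT reach -0.999 (Gata4), inside the shaded range of -1.16 to 0.72. Under metformin Bmi1 (-0.60) and Runx1 (0.57) lie outside the range of -0.48 to 0.51. Bmi1 passed the level filter through its WT arrays alone, so its place outside the range is not read as a result.

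The response to metformin was next set between the genotypes, as the KO difference minus the WT difference. It was above 0 for all 10 markers as deposited (for 9 of 10 with the span trend removed, where Tnfrsf19 was at -0.18, and for 8 of 9 with probe sets averaged, where Axin2 was at -0.07), with a median of 0.64, against 0.26 over all genes, where 67.0% lay above 0. Lgr5 (1.19) and Gata4 (1.06) were at 1 or more, as were 11.2% of genes, and Lgr4 followed at 0.91. Bmi1 (0.14) and Tnfrsf19 (0.27) had the smallest values. For 7 markers (Lgr4, Lgr5, Axin2, Tnfrsf19, Lrig1, Sox2 and Gata4) the KO difference was above 0 and the WT difference below 0, a pattern found in 46.6% of genes. The WT side of Tnfrsf19 was only -0.01, and it turned to 0.10 after cyclic loess. With 1 array per group the difference of responses has no test.

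**Figure D3:**
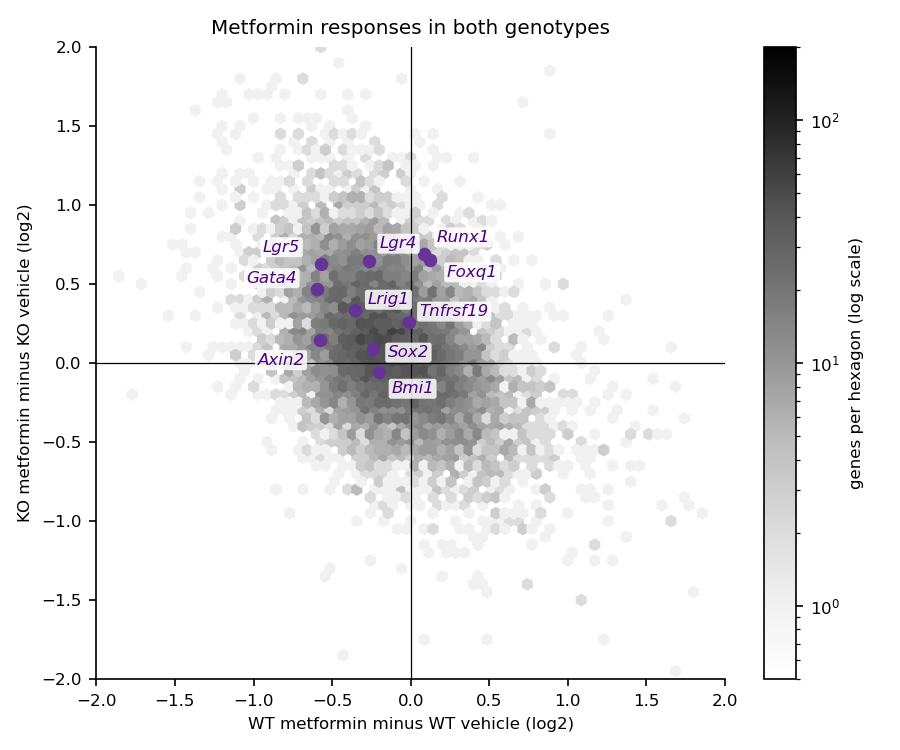
Metformin minus vehicle in KO (vertical, log2) against the same in WT (horizontal, log2), with the markers as purple points over a density of the genes past the level filter, cut at 2 in each direction. Lgr5 (0.63 in KO, -0.57 in WT) and Gata4 (0.47, -0.59) sit in the upper left, while Runx1 (0.69, 0.09) and Foxq1 (0.65, 0.12) sit right of the vertical line.

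Averaged over 2 arrays against 2 in limma with genotype and treatment as terms, 0 of 10 markers passed an adjusted p of 0.05 for genotype, against 5 genes or 0.0451% of those tested. For treatment 0 of 10 passed, and 0.0% of genes did. At an unadjusted p under 0.05, limma gave 374 genes for genotype and 32 for treatment, of which 1 and 0 were markers. The 1 was Bmi1, which passed the level filter only through its WT arrays, so this is not read as a result. Sox2 had a genotype effect of -0.50 (SE 0.30) and Gata4 one of -0.47 (SE 0.35). The treatment effects furthest from 0 were those of Runx1 and Foxq1, each 0.39 (SE 0.31). This model has 1 residual degree of freedom, and a difference between the responses counts as spread in it. Without a test, Lrig1, Bmi1 and Sox2 had both KO arrays below both WT arrays, as did 24.1% of genes. Runx1 and Foxq1 had both metformin arrays above both vehicle arrays, as did 9.1% of genes.

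Differences between the arrays also moved with the span of a gene on the genome. Protein-coding genes were split into 4 span classes of 2637 genes by RefSeq (GRCm38.p6). For KO vehicle minus WT vehicle the median was 0.00 in the shortest class (up to 10.5 kb), -0.21 and -0.31 in the middle classes, and -0.35 in the longest (58.3 kb and over). Lgr4 (96.6 kb), Lgr5 (137 kb), Tnfrsf19 (83.0 kb), Lrig1 (95.8 kb), Runx1 (225 kb) and Gata4 (72.8 kb) are in the longest class, Axin2 (33.0 kb) in the third, and Bmi1 (9.61 kb), Sox2 (2.47 kb) and Foxq1 (2.81 kb) in the shortest. The difference of responses likewise had a median of 0.02 in the shortest class and 0.43 in the longest. The 59 small nucleolar RNA genes past the filter, which are shorter than all of these, had medians of 1.13 for KO vehicle minus WT vehicle, 1.13 for WT metformin minus WT vehicle, -0.56 for KO metformin minus KO vehicle and -1.75 for the difference of responses, each opposite in sign to the marker median. The part of RNA make-up in the marker values was not tested.

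**Figure D4:**
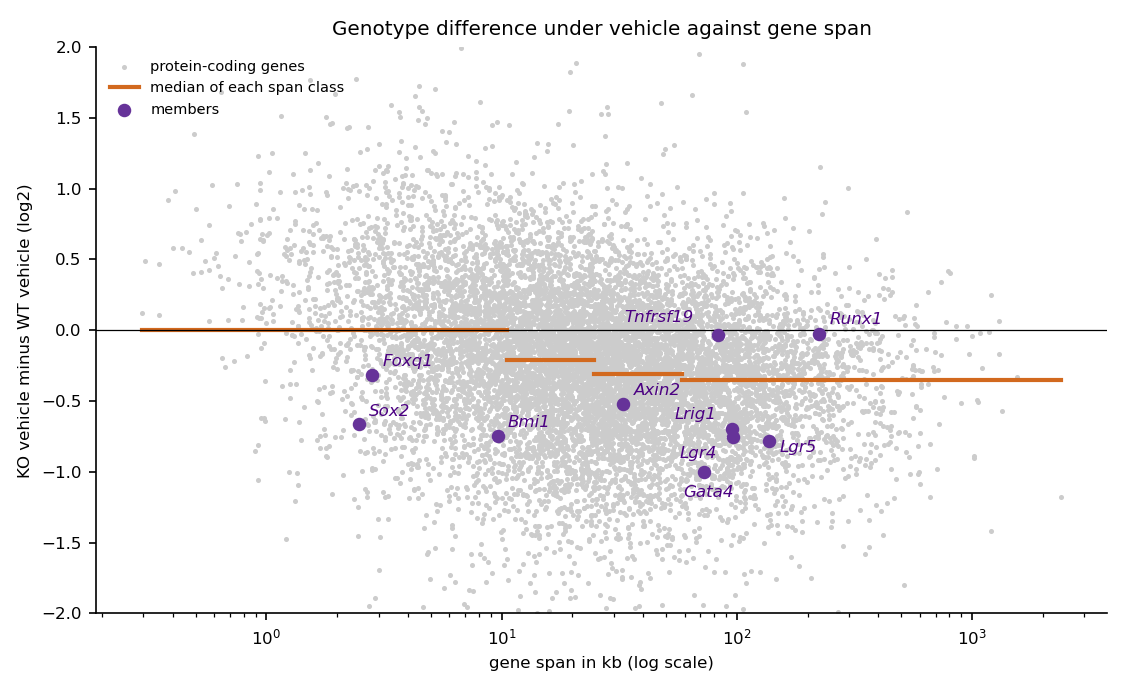
KO vehicle minus WT vehicle (log2) against gene span in kb on a log axis, with protein-coding genes in grey, the median of each span class as an orange bar, and the 10 markers in purple. The bars step down from 0.00 in the shortest class to -0.35 in the longest, and Gata4, Lgr5, Lgr4 and Lrig1 lie below the bar of their class, Runx1 and Tnfrsf19 above it.

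After cyclic loess and removal of each array's trend on span, KO vehicle minus WT vehicle was -0.81 for Sox2, -0.54 for Gata4, -0.51 for Lgr5, -0.30 for Lgr4 and -0.25 for Lrig1. Bmi1, with KO values under 5.03, was at -0.79. Runx1 was then at 0.45 and Tnfrsf19 at 0.36, both above 0. The marker median became -0.29. The metformin difference in KO stayed above 0 for 9 of the 10 markers, with Foxq1 (0.57), Lgr5 (0.49), Lgr4 (0.41) and Runx1 (0.41) highest. Bmi1 was below 0, at -0.04, as were 50.8% of the protein-coding genes on this scale.

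The genes with the profile most like that of Gata4, the marker with the largest range, were Osgin2, Zfp160, Carf, Scyl2 and Slc39a9. Likeness was the Euclidean distance between profiles of 4 arrays, each less its own mean, and these 5 of 11089 genes had distances of 0.0136 to 0.0246. Among the markers the nearest to Gata4 was Lrig1, at 0.224, and 470 genes (4.24%) lay nearer than it. Runx1 was the farthest, at 0.895, with 8627 genes (77.8%) nearer.

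Genes that act with the markers were read from lists. Of 16 R-spondin and Wnt ligands or secretion factors, 11 passed the level filter, and 0 were past 2-fold in any of the 4 comparisons, where between 0.92% and 10.4% of all genes were. Their median was -0.18 for KO vehicle minus WT vehicle, near the -0.22 of all genes, with Rspo1 (-0.90) and Rspo3 (-0.77), which encode ligands of the Lgr receptors, at the low end and Wnt10a (0.74) and Wnt5b (0.75) at the high end. For KO metformin minus KO vehicle the median was 0.16, and Porcn, the acyltransferase needed for Wnt secretion, was highest at 0.64.

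Of 16 measured Wnt receptors and receptor turnover genes, 14 passed the level filter. For KO metformin minus KO vehicle 1 was past 2-fold, the receptor Fzd5 (1.05), against 3.06% of genes, and for KO vehicle minus WT vehicle 1 was, the receptor kinase Ror1 (-1.58), against 10.4% of genes. Rnf43, a ligase that Lgr receptors counteract and itself a Wnt target, was next lowest under vehicle at -0.95, while the other such ligase, Znrf3, was at 0.07. The list medians were 0.11 and -0.24 in these comparisons, close to the 0.11 and -0.22 of all genes. Among 13 intracellular Wnt components, Gsk3b, the kinase that marks β-catenin for degradation, was at 1.26 for KO metformin minus KO vehicle and -1.24 for KO vehicle minus WT vehicle. Bcl9, a coactivator of β-catenin, was at -1.52 in the second of these, where Dvl2 (0.31) and Axin1 (0.19) were highest. The medians of the 13 were 0.30 and -0.31 in these comparisons, against 0.11 and -0.22 over all genes. Past 2-fold were 1 and 2 of the 13, against 3.06% and 10.4% of genes. Of 8 Wnt targets and secreted inhibitors, Sfrp1, which binds Wnt ligands, was at 1.22 and -1.95, and Nkd2, a feedback inhibitor, was at -0.89 under vehicle. Sfrp1 was the 1 of the 8 past 2-fold in each comparison, against the same shares of genes, and the list medians were 0.17 and -0.38. Myc, a target that also answers to many other signals, went against the Wnt readout Axin2 under vehicle, at 0.91 for KO minus WT.

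Other corpus progenitor markers were read as a further list. Of 15 measured, 12 passed the filter, and their medians were 0.37 for KO metformin minus KO vehicle, -0.39 for WT metformin minus WT vehicle and -0.47 for KO vehicle minus WT vehicle, against 0.11, -0.14 and -0.22 over all genes. Sox9, a transcription factor of progenitors, was highest in the first at 1.08, next to the adhesion receptor Cd44 at 0.99. Under vehicle the gastrin receptor gene Cckbr (-1.76) and Prom1 (-1.20) were lowest in KO. Stmn1, a microtubule regulator of dividing isthmus cells, ran the other way, with -0.75 for KO metformin minus KO vehicle and 0.33 for KO vehicle minus WT vehicle. So did Bhlha15, at -0.34 and 0.51, the highest of the list in the second of these comparisons. Of the 12, 3 lay below 0 in the first and 3 lay above 0 in the second. The difference of responses was 1 or more for 6 of the 12, against 11.2% of genes. No member of the 17 proliferation genes past the filter was 2-fold different in any comparison, where between 0.92% and 10.4% of all genes were. Their median was 0.08 for KO metformin minus KO vehicle and -0.35 for KO vehicle minus WT vehicle, against 0.11 and -0.22 over all genes. In the first, Mki67 (0.63) was highest and Mcm5 (-0.34) lowest, and 6 of the 17 lay below 0. In the second, Mcm7 (-0.80) was lowest and Mcm5 (0.50) highest, and 5 of the 17 lay above 0.

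**Figure D5:**
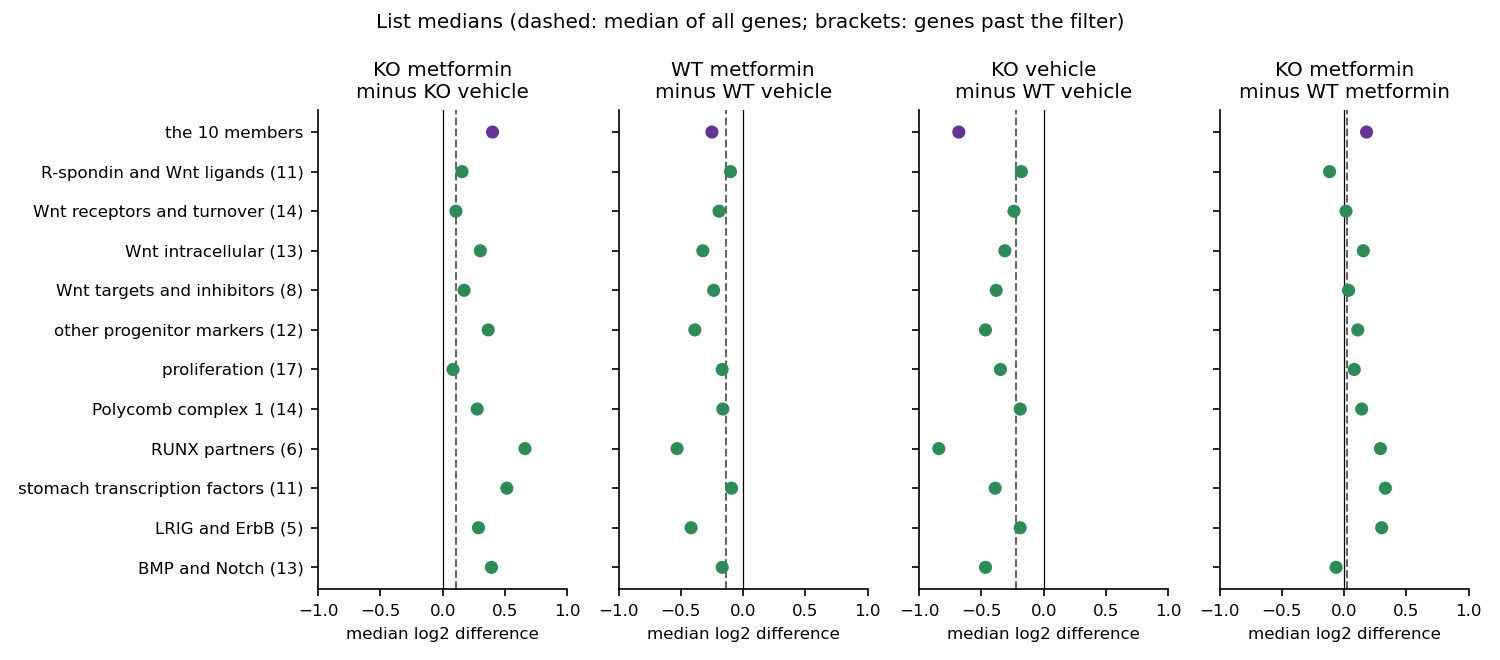
Median log2 difference of the 10 markers (purple) and of 11 gene lists (green) in the 4 comparisons, with the median of all genes dashed and the number of genes past the level filter in brackets. The RUNX partner list has the lowest median for KO vehicle minus WT vehicle (-0.84), followed by the markers (-0.68).

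Partners of single markers were read in the same way. Among 14 Polycomb complex 1 genes, Pcgf3 and Pcgf1, which encode alternatives to Bmi1 in that complex, were both at -1.17 for KO vehicle minus WT vehicle. They were the 2 of the 14 past 2-fold there, against 10.4% of genes, while Pcgf5 (0.18) and Pcgf6 (0.21) lay above 0. The list median of -0.19 was near the -0.22 of all genes. For KO metformin minus KO vehicle, Pcgf3 was at 1.14, the 1 of the 14 past 2-fold, against 3.06% of genes. Bmi1 itself was at -0.06 in the second comparison. The 6 RUNX partners had a median of 0.66 for KO metformin minus KO vehicle, against 0.11 over all genes. The corepressors Tle3 (1.002) and Cbfa2t2 (0.83) were highest there. For KO vehicle minus WT vehicle the list median was -0.84, against -0.22 over all genes, and Cbfa2t2 was lowest at -1.21. Past 2-fold was 1 of the 6 in each comparison (Tle3 and then Cbfa2t2), against 3.06% and 10.4% of genes. Cbfb, the DNA-binding partner subunit of Runx1, was at -0.08 with metformin in KO, where Runx1 was at 0.69. Of 11 transcription factors of stomach identity, Gata5 (1.16) and the Gata4 cofactor Zfpm1 (0.90) were highest for KO metformin minus KO vehicle. Gata5 (-1.02) and Gata6 (-0.90) were lowest for KO vehicle minus WT vehicle, beside Gata4 at -0.999. Foxa3 (0.32) and Nkx6-3 (0.30) were highest there, the 2 of the 11 above 0. The medians of the 11 were 0.52 and -0.39 in these comparisons, against 0.11 and -0.22 over all genes. In each, 1 of the 11 was past 2-fold, against 3.06% and 10.4% of genes. Of the 5 LRIG and ErbB genes, Egfr, a receptor that Lrig1 restrains, was at -0.99 and Lrig3 at -0.43 under vehicle, next to -0.70 for Lrig1. Lrig2 (-0.03) and Erbb3 (-0.10) were the highest of the 5. The list median of -0.19 was near the -0.22 of all genes.

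Markers of other cells also differed between the arrays, and their part in the marker values was not tested. The 10 parietal markers had a median of -0.43 for KO vehicle minus WT vehicle and 0.23 for KO metformin minus KO vehicle. The 5 chief cell markers had medians of 0.02 and -0.03 in these comparisons. Smooth muscle markers summed to 11730 (KO metformin), 7983 (KO vehicle), 15971 (WT metformin) and 15024 (WT vehicle), lowest on the KO vehicle array, which was also the lowest for 8 markers and for 44.3% of all genes. Leukocyte markers, of interest because blood cells express Runx1, summed to 605 (KO metformin), 585 (KO vehicle), 615 (WT metformin) and 582 (WT vehicle) over the 10 measured. Mast cell markers, of another blood lineage, summed to 1132 (KO metformin), 869 (KO vehicle), 465 (WT metformin) and 753 (WT vehicle) over the 7 measured, highest on the array where Runx1 was highest. The 4 mast cell markers past the filter had a median of 2.03 for KO metformin minus WT metformin and of 1.07 for KO vehicle minus WT vehicle. Runx1 was at 0.57 and -0.03 in these comparisons. In each, 3 of the 4 lay above 0, and Kit lay below it, at -0.31 and -1.61. Mcpt2 passed the filter through its KO arrays (6.95 with metformin, 7.25 with vehicle) alone. Its WT values (4.98 and 3.86) lie under 5.03, so medians that include it are not read as exact folds. Antral markers, of interest because antral glands are rich in Lgr5, summed to 285, 288, 241 and 298, and the antral hormone gene Gast lay between 5.40 and 5.88 on the log2 scale. Glial and neuronal markers, of interest for Sox2, summed to 165 (KO metformin), 181 (KO vehicle), 233 (WT metformin) and 201 (WT vehicle) over the 6 measured. The glial gene Sox10 was highest on the KO vehicle array, at 5.52, and S100b, Gfap and Elavl4 were under 5.03 on all arrays.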

How the data were processed

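Total RNA of gastric corpus was labelled as biotinylated cDNA for Affymetrix arrays, per the labels' protocols. The deposited log2 values were made by the authors with RMA and Partek, which the submitters' processing notes name without versions, and lie between 0.77 and 14.02. Array background levels and the annotation build are not stated there. Precision is limited by the number of arrays. Of 41345 probe sets, 23521 have 1 gene in the platform annotation, 1814 have several and 16010 are unnamed here. Symbols were updated through RefSeq (GRCm38.p6), where 23328 of the 23521 were found.

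Groups follow the sample titles. Differences are of log2 values between 2 arrays, and 2-fold means 1 or more in either direction. limma 3.58.1 in R 4.3.3 (lmFit, eBayes, Benjamini-Hochberg) fitted genotype and treatment over 11090 genes. It was run on simulated data with independent noise and no difference between the metformin responses. Recovery was required there only for changes larger than any of the markers', so that run does not show whether changes of marker size would be found. Other steps used Python 3.11.15, numpy 2.4.6, pandas 2.3.3 and statsmodels 0.14.6 (lowess span 0.3). Summed signals are sums of 2 to the power of the log2 value.

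The markers and lists were chosen with earlier results of these data known. Named genes are the 10 markers, the targeted genes, up to 2 highest and 2 lowest of each list in a comparison described, and the 5 nearest profiles to the marker of largest range. Znrf3, Gast, Sox10, S100b, Gfap and Elavl4 were named after their values were seen.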

Additional observations from a re-analysis of the deposited data

Results flagged for a closer look

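Lgr5 and Gata4 had metformin differences of opposite sign in the 2 genotypes that lay at least 1 apart on the log2 scale. For Lgr5 the KO difference (0.63) minus the WT difference (-0.57) was 1.19, and it was 1.11 after cyclic loess and 0.86 with the trend on gene span removed as well. The second Lgr5 probe set, under 5.03 on every array, did not show this pattern, at -0.37 in KO and -0.02 in WT. With probe sets averaged, Lgr5 did not pass the level filter. For Gata4 the KO difference (0.47) minus the WT difference (-0.59) was 1.06, and it was 0.78 and 0.56 under the same alternatives. With 1 array per group neither difference was tested, and 11.2% of genes reached this size.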

How the results depend on the processing

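The alternatives were cyclic loess, arrays centred on their medians, no level filter, a stricter one (75th percentile), probe sets averaged per gene, removal of the trend on gene span after cyclic loess, a 1.5-fold rule, and a mean trend or robust settings in limma. Of 275 differences of single markers recomputed, 270 kept their side of 2-fold and 5 crossed it, and 0 of those at 2-fold or more changed sign. Among those under 2-fold 11 changed sign: Runx1 and Tnfrsf19 for KO vehicle minus WT vehicle (0.23 and 0.16 with cyclic loess, 0.45 and 0.36 with the span trend removed), Tnfrsf19 for WT metformin minus WT vehicle (0.10 and 0.25) and in the difference of responses (-0.18 with the span trend removed), Bmi1 for KO metformin minus KO vehicle (0.02 with arrays centred), and Axin2 with probe sets averaged (-0.14 for KO metformin minus KO vehicle, -0.09 for KO metformin minus WT metformin and -0.07 in the difference of responses). The 5 that crossed were Gata4 for KO vehicle minus WT vehicle (-1.15 with arrays centred), Lgr4 in the difference of responses (1.07 with arrays centred), Gata4 there (0.78 with cyclic loess, 0.56 with the span trend removed) and Lgr5 there (0.86 with the span trend removed).

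With cyclic loess the marker median was 0.25 for KO metformin minus KO vehicle and 0.36 for the difference of responses. With the span trend removed it was 0.18 for KO metformin minus KO vehicle, -0.16 for WT metformin minus WT vehicle and -0.29 for KO vehicle minus WT vehicle. At the 75th percentile, which kept 6 markers, the median for WT metformin minus WT vehicle was -0.14. With the mean of probe sets, where Lgr5 did not pass the filter, that for KO metformin minus WT metformin was 0.042. At 1.5-fold, 4 markers passed for KO metformin minus KO vehicle, 1 for WT metformin minus WT vehicle, 6 for KO vehicle minus WT vehicle and 1 for KO metformin minus WT metformin. The share of all genes past 1.5-fold was not computed, so these counts are not read as results about the markers. With arrays centred, 1 marker passed 2-fold for KO vehicle minus WT vehicle, where 159 of 11090 genes were 2-fold higher and 1359 were 2-fold lower. The cause was not tested.

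For KO vehicle minus WT vehicle the split of genes past 2-fold was 256 higher and 900 lower as deposited, 369 and 562 with cyclic loess, and 159 and 1359 with arrays centred. The median of all genes was -0.07 with cyclic loess and -0.37 with arrays centred. In limma 0 markers passed under every setting, while genes passed for genotype in numbers of 0 (75th percentile) to 40 (arrays centred), against 5, and for treatment in numbers of 0 to 3 (arrays centred). No paired analysis was possible because each group has 1 array. Leaving out an array leaves limma no residual degree of freedom.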

Other observations

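Ligands of the bone morphogenetic protein family, which oppose Wnt signalling in gastrointestinal glands, had the lowest values among the lists read here for KO vehicle minus WT vehicle. Bmp7 was at -2.08 and Bmp4 at -1.96, and for KO metformin minus KO vehicle Bmp7 was at 1.27 and the receptor gene Bmpr2 at 1.24. The 13 genes of the BMP and Notch list past the filter had medians of -0.47 and 0.39 in these comparisons, and 3 of the 13 were past 2-fold in each, against 10.4% and 3.06% of all genes. Of 5 mucous neck cell markers, the mucin gene Muc6 was at 1.22 and A4gnt, a glycosyltransferase of gland mucin, at 1.19 for KO metformin minus KO vehicle, and at -1.05 and -1.48 for KO vehicle minus WT vehicle. The list median was 0.96 for KO metformin minus KO vehicle, with Tff2 below 0 at -0.19, and 0.01 for KO vehicle minus WT vehicle, with 3 of the 5 above 0, of which Tff2 (0.89) and Gkn3 (0.21) were the highest. These values have no test.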
